A study of Mus musculus with 8 samples.

Results

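The genes described here encode the vacuolar proton pump (V-ATPase) and the enzymes, membrane proteins and transcription factors of the lysosome. They are 39 genes listed by name for their function, out of 49315 genes in the deposited tables, and all 39 were abundant enough to be among the 14970 genes tested. The RNA was that of OT-I CD8 T cells, cytotoxic cells of mice with a transgenic receptor for an ovalbumin peptide. The cells, labelled CD45.1, came from spleen and inguinal lymph nodes, were grown in interleukin-7 and interleukin-15 and were edited with Cas9 and a guide RNA delivered by nucleofection. In the control group (4 libraries, labelled both as a control knockout and as wild type) the guide was against LacZ, a bacterial gene that mice lack, and in the Carm1-edited group (4 libraries) it was against Carm1, which encodes an arginine methyltransferase. RNA was taken 7 days after editing from bulk cells. The sources used here give neither strain, age nor the number of animals, and the labels call the 4 libraries of a group technical replicates, so the spread behind the p-values is only that between these libraries and may be technical. What the edit did and what set the 2 preparations apart otherwise cannot be told apart.

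Lysosomes are acidic compartments in which proteins, glycans and lipids are broken down. The V-ATPase makes them acidic: its cytosolic V1 sector hydrolyses ATP and turns a rotor that drives protons through the membrane-bound V0 sector. Transcription factors of the TFE family (TFEB, TFE3 and MITF), which the kinase complex mTORC1 holds in the cytosol, bind an E-box-like element at many lysosomal genes. In cytotoxic T cells the granules that carry perforin and granzymes are lysosome-related, and lysosomal proteases process some of their cargo.

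Total counts ran from 37556330 to 41439998 per library, and 3 counts in a library, taken as the limit that a count of 0 allows, equalled 0.0724 to 0.0799 CPM (counts scaled to the library size). Levels are CPM on library sizes adjusted with TMM factors, as mean ± SD of 4 libraries. A log2 fold change is the Carm1-edited minus the control value, ± standard error (SE), and a gene passed at an adjusted p under 0.05 (edgeR quasi-likelihood test, Benjamini-Hochberg over all genes tested). Carm1 itself fell from 95.9 ± 1.04 to 32.8 ± 0.493 CPM, and the labels state that its protein was lost on western blots. Of 10 CD8 T cell markers, 8 rose and 2 fell (median log2 fold change 0.63), and Cd8a was at 1573 ± 13.6 and 1973 ± 5.32 CPM, Cd3g at 322 ± 5.64 and 678 ± 22.6 CPM. The summed level of 20 macrophage and monocyte markers was 179.9 to 187 CPM in the control libraries and 11.1 to 13.0 CPM in the Carm1-edited libraries, and all 15 of them that were tested fell. Lyz2 was at 83.1 ± 1.36 and 0.148 ± 0.114 CPM, and C1qa and C1qc had 0 counts in the Carm1-edited libraries. The sum of 10 B cell markers was 275.5 to 281 CPM and 936 to 963 CPM, most of it Ighm. Of the 6 that were tested, 4 rose, 1 fell and 1 did not pass, with log2 fold changes from -5.82 to 3.78. Macrophages are rich in lysosomes, and the part of other cell types in the results below was not tested. In bulk RNA, fewer cells of a type and less RNA per cell cannot be told apart. The series text mentions co-culture with B16F10 melanoma cells, while the sample protocols give culture in cytokines only. Of 10 melanoma markers, Tyr, Tyrp1, Dct, Sox10 and Slc45a2 had 0 counts in all 8 libraries. The 10 summed to 12.7 to 13.7 CPM in the control and 14.6 to 15.8 CPM in the Carm1-edited libraries. Only 2 were tested, of which Pmel rose and Gpnmb fell.

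Carm1-edited libraries held less RNA of most of the 16 V-ATPase genes of the list. Among 13 other V-ATPase subunit and assembly genes that were tested, 9 rose and 4 fell. The listed enzymes and lipid-handling proteins of the lysosome divided. The cholesterol-binding protein gene Npc2, the saposin precursor gene Psap and the cathepsin genes Ctsw, Ctsd and Ctsl were higher. The cathepsin genes Ctss, Ctsz and Ctsh and the glycosidase gene Gusb were lower. Of the 39 genes, 15 rose, 22 fell and 2 did not pass. Over all genes tested, 87.7% passed, 44.5% higher and 43.2% lower, so passing is not a mark of these genes. At least 2-fold differences were seen for 2 of the 39 in the higher direction (20.5% of all genes tested) and for 6 in the lower direction (15.2%). For 37 of the 39 no library of one group lay within the range of the other, against 83.4% of all genes tested. The median was -0.25 on the log2 scale over the 39 genes and 0.02 over all genes tested. It was -0.49 over the 16 V-ATPase genes and 0.24 over the 18 cathepsins, glycosidases and lipid-handling genes. Scaling by upper quartiles moved the median of all genes tested up by 0.21, to 0.23, and the share of passing genes that were higher from 50.8% to 61.0%. The median of the 39 genes moved with it, to -0.03.

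**Figure D1:**
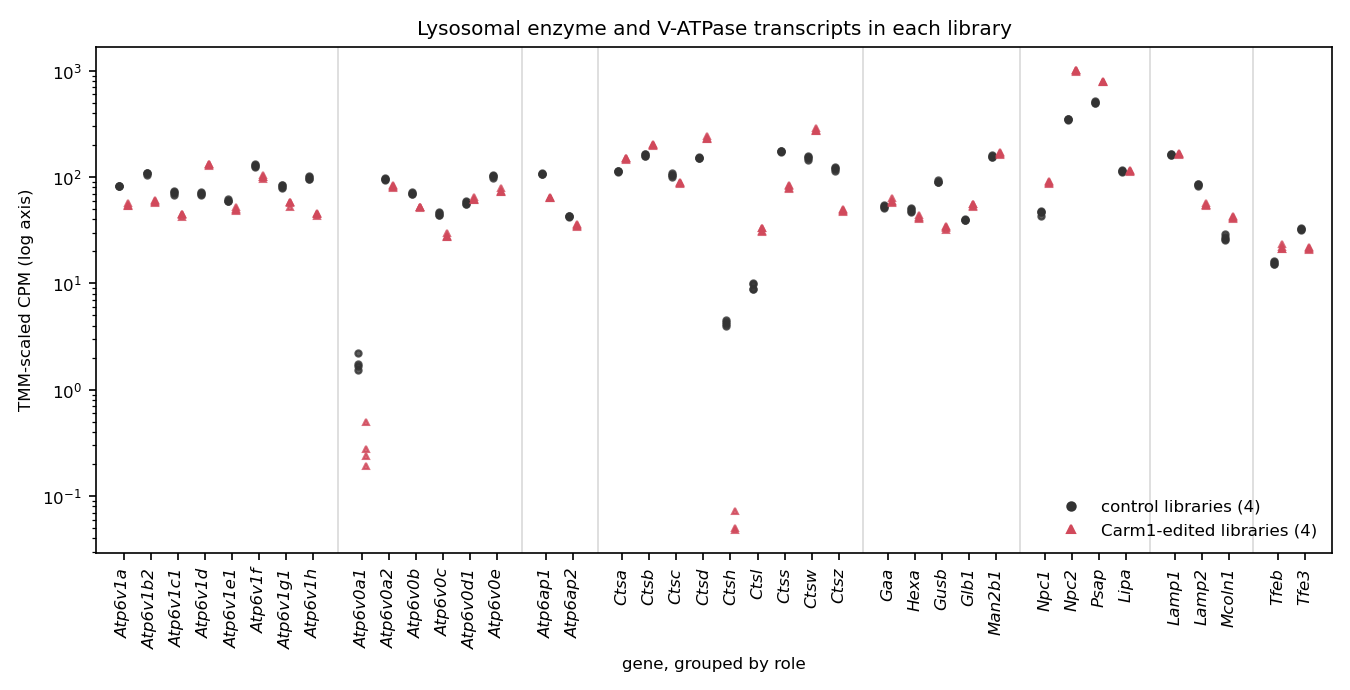
TMM-scaled CPM (log axis) of each of the 39 genes in each library, grouped by role, with circles for the 4 control and triangles for the 4 Carm1-edited libraries. Psap and Npc2 are the highest and Atp6v0a1 and Ctsh the lowest in both groups, and 1 Carm1-edited library with 0 counts of Ctsh is not drawn.

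**Figure D2:**
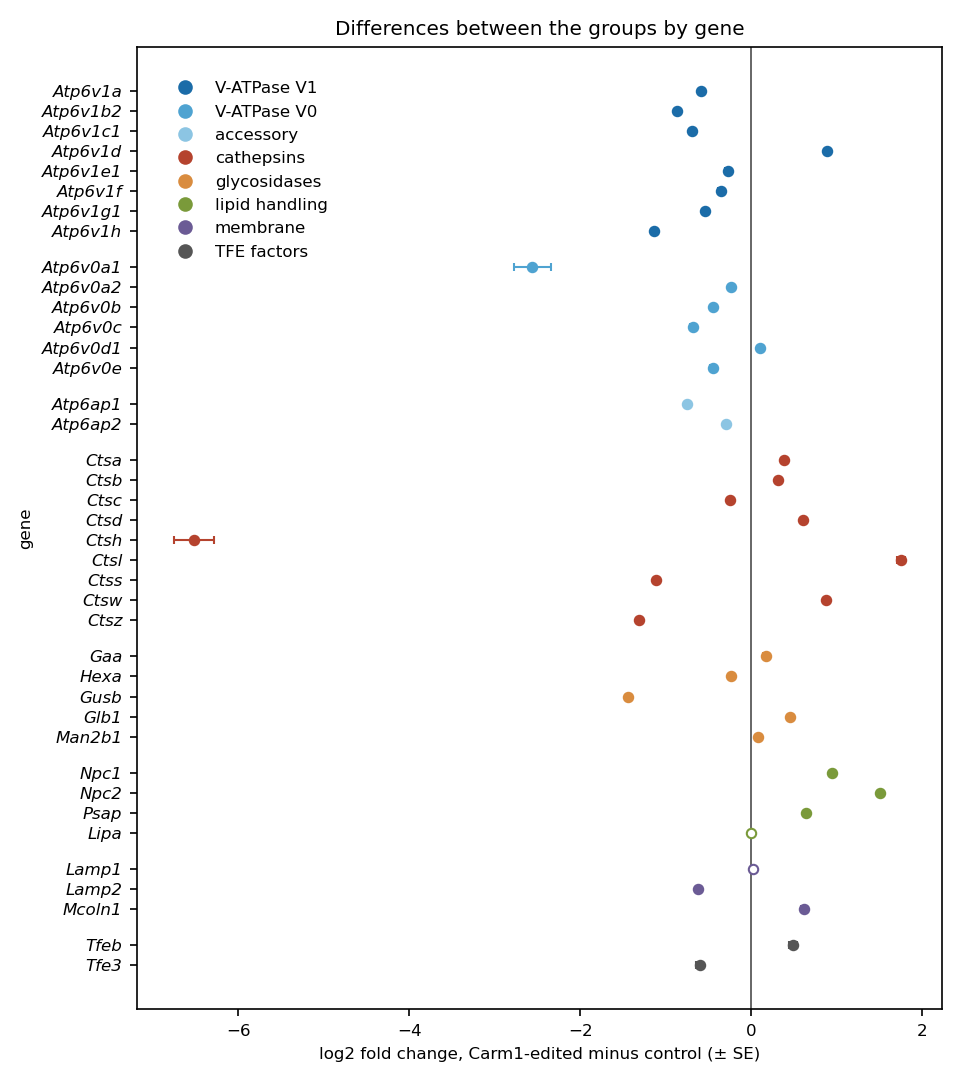
Log2 fold change of each gene, Carm1-edited minus control, with bars for ± SE and colours for the role. Filled points passed (adjusted p under 0.05) and the open points, Lipa and Lamp1, did not; 14 of the 16 V-ATPase genes lie left of 0.

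Compared per length of gene, as RPKM (CPM per kilobase), the genes spanned a wide range. In the control libraries Psap was highest at 185 RPKM, followed by Ctss at 129, Ctsw at 124, Atp6v1f at 121 and Npc2 at 108 RPKM. In the Carm1-edited libraries Npc2 was highest at 305 RPKM, ahead of Psap at 289 and Ctsw at 226 RPKM, and Ctss ranked 8 of 39 at 59.7 RPKM. Atp6v0a1 and Ctsh held the lowest ranks in both groups. The median over the 39 genes was 20.4 RPKM in the control and 20.8 RPKM in the Carm1-edited libraries.

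The element bound by TFE factors was searched for in promoters, since TFEB and TFE3 are themselves among these genes. RefSeq promoters (GRCm38.p6, the assembly of mm10, 250 bases before to 50 after an annotated transcript start) were matched for 30 of the 39 genes. Those not matched were Atp6v1b2, Atp6v1c1, Atp6v1g1, Atp6v1h, Atp6v0a2, Ctsb, Ctsh, Ctsw and Npc1. The motif TCACGTGA, which reads the same on both strands, was found at 6 of the 30 genes (20%) and at 304 of all 27025 genes in the table (1.125%). Its core CACGTG, which every TCACGTGA also holds, was found at 11 of the 30 (36.7%) and at 8.09% of all genes. All genes here include those too low to be tested in these libraries, whereas all 39 were tested, so the shares are over unlike sets. The element is known from lysosomal genes, so a higher share in this list could be foreseen and is not a result of these libraries. Each TCACGTGA follows, 5′ to 3′ on the strand of the gene, in capitals with 11 bases on either side, because these are the genes of the list that carry the full letters. Ctsa holds 2 of them, starting 13 bases before and 4 bases after a transcript start.
Atp6v0d1, chr8:105566050-105566079, minus strand: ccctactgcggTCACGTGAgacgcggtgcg
Atp6v0e, chr17:26676387-26676416, plus strand: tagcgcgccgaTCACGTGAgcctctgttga
Atp6v1a, chr16:44139373-44139402, minus strand: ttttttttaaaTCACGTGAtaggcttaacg
Ctsa, chr2:164833749-164833778, plus strand: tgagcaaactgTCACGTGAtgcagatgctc
Ctsa, chr2:164833766-164833795, plus strand: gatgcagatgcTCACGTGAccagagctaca
Ctsd, chr7:142387908-142387937, minus strand: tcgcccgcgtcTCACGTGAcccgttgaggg
Mcoln1, chr8:3500462-3500491, plus strand: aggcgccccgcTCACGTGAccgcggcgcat

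The matches at Atp6v0d1 and Mcoln1 began 4 and 46 bases before the start, and those at Ctsd and Atp6v1a 99 and 132 bases before it. The one at Atp6v0e began 2 bases after it. Of these 6 genes, Ctsa, Ctsd, Mcoln1 and Atp6v0d1 rose and Atp6v0e and Atp6v1a fell. Of the 24 genes with a promoter and no such match, 9 had a log2 fold change above 0 and 15 below it. Lamp1 and Atp6v0b had 4 and 2 matches to the core (capitals) just upstream of the start, and their stretches show how closely such cores can be spaced.
Lamp1, chr8:13159096-13159155, plus strand: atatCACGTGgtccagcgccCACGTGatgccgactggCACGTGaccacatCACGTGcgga
Atp6v0b, chr4:117887336-117887375, minus strand: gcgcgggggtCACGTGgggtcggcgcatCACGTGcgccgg

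Lamp1 did not pass and Atp6v0b fell. A match describes letters only, and binding was not measured in these libraries.

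Of the 8 listed genes of the V1 sector, 7 fell and 1 rose (median log2 fold change -0.56). Atp6v1h (ENSMUSG00000033793, chromosome 1, 5070018 to 5162529, plus strand, mm10), which encodes the regulatory subunit H, fell most. It was at 101, 96.1, 101 and 96.8 CPM in the control libraries and 46.5, 44.8, 43.0 and 45.4 CPM in the Carm1-edited libraries, so every Carm1-edited library was below every control library. The log2 fold change was -1.14 ± 0.028 (adjusted p = 1.8e-32), a 2.20-fold difference. Atp6v1b2, which encodes the nucleotide-binding subunit B, was at 105, 111, 109.5 and 108 CPM in the control libraries and 58.8, 61.0, 57.6 and 60.1 CPM in the Carm1-edited libraries. The groups were again apart, with a log2 fold change of -0.87 ± 0.026 (adjusted p = 1.9e-29). Atp6v1a, the catalytic subunit A that binds ATP together with B, fell from 82.4 ± 0.65 to 54.8 ± 1.37 CPM. Atp6v1c1, whose product C helps to hold V1 on V0, fell from 71.4 ± 2.50 to 44.3 ± 1.31 CPM, and the peripheral stalk genes Atp6v1g1 and Atp6v1e1 fell 1.45-fold and 1.21-fold. The call for Atp6v1e1 was lost with upper-quartile scaling (adjusted p = 0.06).

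The 2 rotor subunits of V1 went in opposite directions. Atp6v1d (ENSMUSG00000021114, chromosome 12, 78842989 to 78861638, minus strand), which encodes the central rotor subunit D, was at 73.1, 71.0, 68.6 and 70.1 CPM in the control libraries and 133, 129, 128 and 134 CPM in the Carm1-edited libraries. It was the only one of the 8 listed V1 genes whose Carm1-edited libraries all lay above the control libraries, by 0.89 ± 0.026 on the log2 scale (adjusted p = 6.6e-30). Atp6v1f, which encodes its rotor partner F, fell from 129 ± 3.24 to 100.4 ± 3.07 CPM (log2 fold change -0.36 ± 0.026). Per length, Atp6v1f was 121 and Atp6v1d 50.4 RPKM in the control libraries, against 94.4 and 93.4 RPKM in the Carm1-edited libraries.

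Of the 6 listed genes of the V0 sector, 5 fell and 1 rose (median log2 fold change -0.45). Atp6v0c, which encodes the main proteolipid of the proton-carrying ring, was at 44.0, 47.3, 43.6 and 46.3 CPM in the control libraries and 27.5, 29.7, 27.6 and 28.2 CPM in the Carm1-edited libraries, falling 1.60-fold without overlap (log2 fold change -0.68 ± 0.036, adjusted p = 7.8e-21). A processed copy, Atp6v0c-ps2, was counted at means of 32.5 and 28.5 reads against 1695 and 1152.5 for Atp6v0c, and how reads shared by both were assigned is not known. Atp6v0b, a second ring proteolipid, and Atp6v0e, a small membrane subunit, fell 1.36-fold and 1.37-fold. Atp6v0d1, which joins the rotor to the ring, was the exception at 57.4 ± 1.77 and 61.8 ± 1.97 CPM, a rise of 0.11 ± 0.029 on the log2 scale that is smaller than the shift between scalings. The accessory genes Atp6ap1 and Atp6ap2, whose products help to assemble the pump, both fell. Atp6ap1 was at 107, 108, 108 and 106 CPM in the control libraries and 64.1, 65.0, 63.1 and 64.0 CPM in the Carm1-edited libraries, again without overlap, and Atp6ap2 went from 43.0 ± 0.497 to 35.2 ± 0.984 CPM.

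The a subunit of V0 forms the proton path and is encoded by alternative genes that direct the pump to different membranes. Atp6v0a2 was at 97.0, 96.0, 97.7 and 94.96 CPM in the control libraries and 80.1, 82.8, 85.2 and 79.6 CPM in the Carm1-edited libraries, without overlap. Its fall was small (-0.24 ± 0.025 on the log2 scale) and was not called with upper-quartile scaling (adjusted p = 0.46). Atp6v0a1 was scarce and fell from 1.79 ± 0.288 to 0.302 ± 0.136 CPM, the largest difference among the 16 V-ATPase genes of the list (-2.56 ± 0.21). The macrophage and monocyte markers fell too, and whether they had a part in this fall was not tested. Tcirg1 (ENSMUSG00000001750, chromosome 19, 3896050 to 3907133, minus strand), which is not among the 39 and encodes the a3 form known from osteoclasts and secretory lysosomes, was at 37.2, 39.0, 38.7 and 39.6 CPM in the control libraries and 82.3, 83.3, 84.6 and 81.9 CPM in the Carm1-edited libraries. It rose 2.15-fold (log2 fold change 1.10 ± 0.028, adjusted p = 7.3e-32), while 14 of the 16 V-ATPase genes of the list fell. The make-up of a-subunit transcripts therefore differed between the groups, on a measure that does not depend on library scaling. Tcirg1 held 36.2%, 37.4%, 36.9% and 38.1% of the summed per-kilobase level of the a-subunit genes in the control libraries and 60.6%, 60.1%, 59.8% and 60.7% in the Carm1-edited libraries. Atp6v0a2 held 61.7% ± 0.884 and 39.5% ± 0.396 (SD, n = 4), so the per-length order of the 2 genes was reversed between the groups. That order depends on the gene lengths used. Not divided by length, the 2 were nearly level in the Carm1-edited libraries (means of 83.0 CPM for Tcirg1 and 81.9 CPM for Atp6v0a2). Atp6v0a4, the kidney form, had 1 and 2 counts over the 4 libraries of each group.

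**Figure D3:**
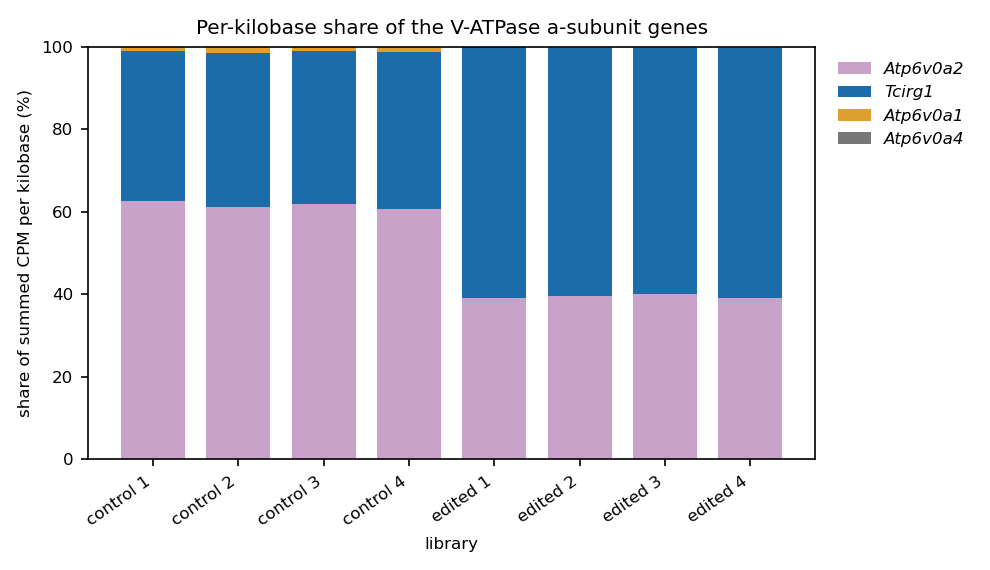
Share of each a-subunit gene in the summed CPM per kilobase of the 4 a-subunit genes, 1 bar per library. Tcirg1 takes 36.2% to 38.1% in the control libraries and 59.8% to 60.7% in the Carm1-edited libraries.

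Of 20 other V-ATPase subunit and assembly genes, 13 were tested, of which 9 rose and 4 fell. The tissue-restricted subunit genes Atp6v0d2, Atp6v0e2, Atp6v1b1, Atp6v1c2, Atp6v1e2 and Atp6v1g3 were too low to be tested, with at most 16 counts over 4 libraries. Atp6v1g2, best known from neurons, was at 2.01 ± 0.431 and 9.06 ± 1.008 CPM, and per length it reached 3.61 RPKM against 49.7 RPKM for Atp6v1g1 in the Carm1-edited libraries. Among genes needed to build V0 in the endoplasmic reticulum, Ccdc115 fell from 73.4 ± 1.80 to 31.7 ± 1.245 CPM, Vma21 fell 2.11-fold and Tmem199 fell 1.34-fold, so these 3 moved with the subunits of the list. The 3 genes of the list with a TLDc domain, of the kind that binds V1, rose: Oxr1 from 35.9 ± 1.75 to 93.8 ± 3.13 CPM, Tldc1 from 11.9 ± 0.502 to 21.3 ± 0.609 CPM and Ncoa7 from 27.0 ± 1.39 to 31.7 ± 0.546 CPM. Genes of the complex that joins V1 to V0 were divided. Rogdi and Wdr7 rose to 6.31 ± 0.63 and 31.8 ± 1.35 CPM from 3.28 ± 0.517 and 25.4 ± 0.818 CPM, and Dmxl1 was at 49.0 ± 1.53 and 52.0 ± 0.985 CPM, a passing rise of 0.08 ± 0.030 that DESeq2 did not call (adjusted p = 0.066). Dmxl2 was scarce and fell from 0.53 ± 0.14 to 0.0797 ± 0.0237 CPM, with 79 and 13 counts over 4 libraries.

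Of the 9 cathepsins, 5 rose and 4 fell (median log2 fold change 0.31). Ctsw (ENSMUSG00000024910, chromosome 19, 5465240 to 5468498, minus strand), a cysteine protease known from CD8 T cells and natural killer cells, was at 146, 157, 150.3 and 156 CPM in the control libraries and 287, 279, 273 and 275 CPM in the Carm1-edited libraries. All Carm1-edited libraries were above all control libraries, by 0.87 ± 0.024 on the log2 scale (adjusted p = 1.4e-30). CD8 T cell markers rose as well (median log2 fold change 0.63, 8 of 10 higher), while the 3 natural killer cell markers that were tested fell: Ncr1 from 1.40 ± 0.168 to 0.366 ± 0.149, Klrb1c from 2.08 ± 0.236 to 1.03 ± 0.354 and Klra4 from 0.54 ± 0.0548 to 0.0373 ± 0.0325 CPM. These 3 are from a list of 8 CD4 T cell and natural killer cell markers, 7 of them tested. The other 4 tested, all CD4 T cell markers, rose: Zbtb7b (log2 fold change 2.81), Cd4 (2.21), Cd40lg (0.50) and Foxp3 (0.39). Summed, the list was at 12.6 to 13.5 CPM (control) and 39.4 to 43.3 CPM (Carm1-edited), with Zbtb7b alone at 4.82 ± 0.152 and 33.7 ± 1.20 CPM. The part of the T cell content in the rise of Ctsw was not tested. Ctsl, an endopeptidase of broad range, was at 8.94, 10.2, 9.88 and 8.79 CPM in the control libraries and 33.2, 30.3, 31.1 and 33.0 CPM in the Carm1-edited libraries. It showed the largest rise of the 39 genes, 3.38-fold (log2 fold change 1.76 ± 0.050, adjusted p = 3.6e-30). Ctsd, the main aspartic protease of lysosomes, was at 153, 152, 153 and 153 CPM in the control libraries and 242, 227, 228 and 235 CPM in the Carm1-edited libraries, 1.52-fold higher. Ctsa, which also protects the lysosomal neuraminidase and beta-galactosidase, rose from 114 ± 1.04 to 149 ± 2.79 CPM, and Ctsb, an abundant cysteine protease, from 161 ± 4.55 to 199.99 ± 3.003 CPM. The kit does not mark strand, and Ctsa shares exonic bases with Pltp (495 bases) and Neurl2 (324 bases) on the other strand. Pltp was counted at 219.5 and 227 reads and Neurl2 at 60.5 and 181 reads on average, against 4275 and 6080 for Ctsa. Ctsb likewise shares 767 of 4739 bases with Fdft1, and Ctsd 808 of 2351 bases with the predicted gene Gm49369 (0.2 and 0.8 reads on average), so part of their reads could have been dropped or assigned elsewhere.

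The cathepsins that fell include genes best known from antigen-presenting cells. Ctss, which trims the invariant chain of MHC class II, was at 173, 176, 175 and 175 CPM in the control libraries and 83.1, 78.9, 77.8 and 84.5 CPM in the Carm1-edited libraries, 2.15-fold lower without overlap (log2 fold change -1.11 ± 0.026, adjusted p = 2.9e-33). Ctsz, a carboxypeptidase, was at 119, 125, 115 and 122 CPM in the control libraries and 50.7, 48.0, 48.7 and 46.9 CPM in the Carm1-edited libraries, 2.48-fold lower. Ctsh, an aminopeptidase, was at 4.48, 4.16, 3.94 and 4.31 CPM in the control libraries and 0.0478, 0.0721, 0.05 and 0 CPM in the Carm1-edited libraries. With 633 counts over the control and 7 over the Carm1-edited libraries it had the largest difference of the 39 genes, 91.8-fold (log2 fold change -6.52 ± 0.23). The macrophage and monocyte markers fell in the same libraries, from a sum of 179.9 to 187 CPM to one of 11.1 to 13.0 CPM, and their part in these falls was not tested. In the Carm1-edited libraries Ctss was at 81.1 ± 3.22, Ctsz at 48.6 ± 1.59 and Lyz2 at 0.148 ± 0.114 CPM. Which cells the remaining Ctss and Ctsz RNA came from was not tested. Ctsc, which activates granzymes by removing their propeptides, was at 105 ± 3.63 and 87.9 ± 1.00 CPM (log2 fold change -0.25 ± 0.026), a call that upper-quartile scaling removed (adjusted p = 0.21).

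Within the cathepsins, the per-kilobase share of Ctsw went from 24.9%, 26.0%, 25.6% and 25.9% in the control to 43.2%, 43.7%, 43.0% and 42.7% in the Carm1-edited libraries. Ctss was the largest cathepsin transcript in the control libraries with 26.6% ± 0.3 (SD, n = 4) and held 11.4% ± 0.355 in the Carm1-edited libraries. Ctsz went from 17.3% ± 0.391 to 6.44% ± 0.145, and Ctsd from 13.5% ± 0.205 to 18.9% ± 0.246. For each of these 4 genes the shares of the groups did not overlap.

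**Figure D4:**
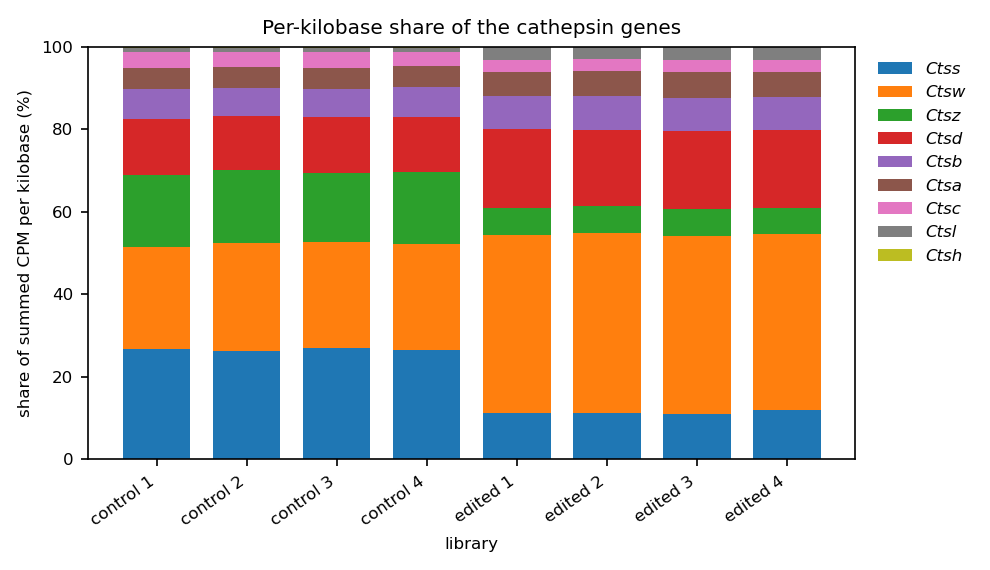
Share of each of the 9 cathepsin genes in their summed CPM per kilobase, 1 bar per library. Ctss and Ctsz take smaller and Ctsw and Ctsd larger parts in the 4 Carm1-edited libraries, and Ctsh is too small to be seen.

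Among 13 other lysosomal peptidases and cystatins, 12 were tested, of which 7 rose, 4 fell and 1 did not pass. One of the rises, that of the cathepsin gene Ctso (0.08 ± 0.038 on the log2 scale, adjusted p = 0.049), was not called by DESeq2 (adjusted p = 0.17), with RLE factors (0.11) or without a filter (0.21). Scpep1, a serine carboxypeptidase-like gene, rose from 26.8 ± 1.06 to 101 ± 1.44 CPM, and Ctsf, a cysteine cathepsin, from 0.246 ± 0.0925 to 7.63 ± 0.322 CPM. Ctse, an aspartic protease of endosomes, fell from 99.3 ± 1.17 to 13.7 ± 0.849 CPM. Ctsg, a protease gene of neutrophil granules, fell 7.60-fold and the legumain gene Lgmn, known from macrophages, 11.3-fold. Summed, 10 dendritic cell and granulocyte markers were at 22.1 to 23.4 CPM in the control and 4.44 to 5.67 CPM in the Carm1-edited group. Of the 9 that were tested, 7 fell and 2 rose. Mpo was at 11.9 ± 0.634 and 0.105 ± 0.0569 CPM, and S100a8 and S100a9 had 0 counts in the Carm1-edited group. The part of these cells was not tested. The inhibitor genes differed, with Cst7, whose product cystatin F inhibits cathepsin C, at 35.4 ± 0.889 and 155 ± 2.76 CPM, Cst3 at 53.8 ± 1.03 and 61.1 ± 3.93 CPM and Cstb at 39.9 ± 0.816 and 30.7 ± 1.73 CPM.

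Of the 5 glycosidases, 3 rose and 2 fell (median log2 fold change 0.09). Gusb (ENSMUSG00000025534, chromosome 5, 129989011 to 130003049, minus strand), the beta-glucuronidase that cleaves glycosaminoglycans, was at 89.7, 90.05, 89.7 and 93.4 CPM in the control libraries and 33.3, 34.7, 34.1 and 32.0 CPM in the Carm1-edited libraries. It was 2.71-fold lower (log2 fold change -1.44 ± 0.029, adjusted p = 2.2e-35), well apart from the other glycosidases. Glb1, the lysosomal beta-galactosidase, rose from 39.5 ± 0.633 to 54.4 ± 1.54 CPM, while Tmppe, which shares 165 exonic bases with it, was counted at 758 and 340.0 reads on average. Gaa, the acid alpha-glucosidase that degrades glycogen, and Man2b1, an alpha-mannosidase, were 1.13-fold and 1.06-fold higher, and Hexa, the alpha chain of beta-hexosaminidase, was 1.17-fold lower. Their log2 fold changes (0.17 ± 0.030, 0.09 ± 0.024 and -0.23 ± 0.032) are of the size of the 0.21 by which scaling moved all genes, and the call for Hexa was lost with upper-quartile scaling (adjusted p = 0.63). Of 33 other lysosomal hydrolases and cofactors, 20 rose, 10 fell and 3 did not pass, with a median of 0.21. The largest of these differences were rises of Pld4, an endolysosomal exonuclease, from 2.03 ± 0.209 to 31.7 ± 1.86 CPM, of Manba, a beta-mannosidase, 2.88-fold, of Ppt2, a thioesterase, 2.68-fold, and of Sgsh, a heparan sulfate sulfatase, 2.53-fold.

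The lipid-handling genes were the group with the highest median, 0.80, with 3 of 4 rising and 1 not passing. Npc2 (ENSMUSG00000021242, chromosome 12, 84754560 to 84773112, minus strand) encodes the soluble protein that takes cholesterol from the lysosomal lumen and hands it to NPC1 in the membrane. Npc2 was at 351, 356, 348 and 350.2 CPM in the control libraries and 1018, 969, 988 and 1009 CPM in the Carm1-edited libraries, and Npc1 at 43.5, 46.5, 46.8 and 47.9 CPM in the control libraries and 86.9, 89.7, 92.5 and 87.5 CPM in the Carm1-edited libraries. Both partners were higher in every Carm1-edited library than in any control library, by 1.504 ± 0.022 (adjusted p = 2.0e-40) and 0.95 ± 0.029 (adjusted p = 5.8e-29) on the log2 scale. Psap, the precursor of the saposins that present sphingolipids to hydrolases, was at 497, 518, 498 and 512 CPM in the control libraries and 805, 788, 792 and 783 CPM in the Carm1-edited libraries, 1.56-fold higher without overlap. Lipa, the acid lipase that releases cholesterol from its esters, was at 113, 117, 113 and 115 CPM in the control libraries and 111, 117, 114 and 115 CPM in the Carm1-edited libraries, so the groups overlapped. Its log2 fold change was -0.0016 with an SE of 0.025 (adjusted p = 0.95), with the sign and the call set by the scaling: 0.21 with upper quartiles (adjusted p = 2.8e-10) and 0.16 from unscaled totals (adjusted p = 6.6e-07).

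Of the 3 membrane genes, 1 rose, 1 fell and 1 did not pass. Lamp1, an abundant glycoprotein of the lysosomal membrane that appears on the surface of degranulating T cells, was at 162, 161, 165 and 163 CPM in the control libraries and 168, 166, 162 and 166 CPM in the Carm1-edited libraries, with overlapping groups and a log2 fold change of 0.02 ± 0.023 (adjusted p = 0.36). It passed as a rise with upper quartiles (0.24), with library totals alone (0.18) and with the filter of at least 5 CPM in 4 libraries (0.11). Its neighbour Grtp1, which shares 249 exonic bases on the other strand, was counted at 21.0 and 455 reads on average against 6096 and 6751 for Lamp1. Lamp2, whose product also takes part in autophagy, was at 85.8, 84.4, 85.6 and 83.1 CPM in the control libraries and 55.3, 55.1, 53.8 and 56.9 CPM in the Carm1-edited libraries, 1.53-fold lower. Mcoln1, the calcium channel TRPML1, was at 26.2, 27.6, 25.6 and 29.5 CPM in the control libraries and 41.3, 42.3, 43.2 and 40.2 CPM in the Carm1-edited libraries, 1.53-fold higher. Among 31 other lysosomal membrane genes, 18 rose, 7 fell and 6 did not pass, with a median of 0.23. Abcb9, a lysosomal peptide transporter, rose from 75.5 ± 1.46 to 271 ± 8.86 CPM and Slc38a9, an amino acid sensor upstream of mTORC1, from 9.72 ± 0.737 to 41.5 ± 0.846 CPM. Slc15a3, a peptide and histidine transporter of endolysosomes, and the tetraspanin gene Cd63 fell 6.27-fold and 4.61-fold.

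The 2 TFE genes of the list went in opposite directions. Tfeb was at 15.1, 16.1, 15.2 and 15.9 CPM in the control libraries and 23.5, 20.9, 21.2 and 21.9 CPM in the Carm1-edited libraries, and Tfe3 at 32.2, 32.5, 32.9 and 32.0 CPM in the control libraries and 21.4, 21.8, 21.3 and 20.8 CPM in the Carm1-edited libraries. Neither pair of groups overlapped, and the log2 fold changes were 0.49 ± 0.046 (adjusted p = 1.2e-12) and -0.60 ± 0.038 (adjusted p = 4.7e-18). Per length, Tfe3 was the higher of the 2 in the control libraries (3.499 against 2.75 RPKM) and Tfeb in the Carm1-edited libraries (3.86 against 2.30 RPKM). The location of the proteins, through which these factors are mainly controlled, was not measured. A further list of 21 genes held the TFE factors Mitf and Tfec, the transcriptional repressor gene Zkscan3, and Rag, Ragulator, folliculin, TSC and mTORC1 genes that act on TFE factors or mTORC1 at the lysosome; 14 fell, 6 rose and 1 did not pass (median -0.37). Mitf and Tfec were scarce and are named after their values were seen. Mitf rose from 0.788 ± 0.036 to 1.91 ± 0.192 CPM, and Tfec fell from 0.807 ± 0.209 CPM to 2 counts over the 4 Carm1-edited libraries. The macrophage and monocyte markers fell as well, and any part of theirs in the fall of Tfec was not tested. Rragd, a Rag GTPase gene that TFE factors are known to induce, fell from 19.4 ± 0.573 to 3.36 ± 0.278 CPM, Fnip2, a partner of folliculin, from 7.32 ± 0.198 to 1.18 ± 0.152 CPM and Rheb, the GTPase that activates mTORC1, 1.92-fold. Lamtor4, a subunit of the Ragulator scaffold that also touches the V-ATPase, rose 1.92-fold.

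Genes of enzyme tagging and of lysosomal sorting and movement were mostly lower, with 15 of 21 falling, 3 rising and 3 not passing. Their median log2 fold change was -0.41. Nagpa, the uncovering enzyme of the mannose 6-phosphate tag, fell from 41.1 ± 0.68 to 16.7 ± 0.474 CPM, and Gga2, an adaptor for mannose 6-phosphate receptors, from 39.4 ± 0.709 to 14.9 ± 0.564 CPM. Vps29, a retromer subunit that returns receptors to the Golgi, fell 2.06-fold, and Arl8b, a GTPase that moves lysosomes and lytic granules along microtubules, 1.74-fold. Across the 6 lists of further lysosome genes 131 of 139 genes were tested, of which 63 rose, 54 fell and 14 did not pass, with a median of 0.06 against 0.02 over all genes tested.

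**Figure D5:**
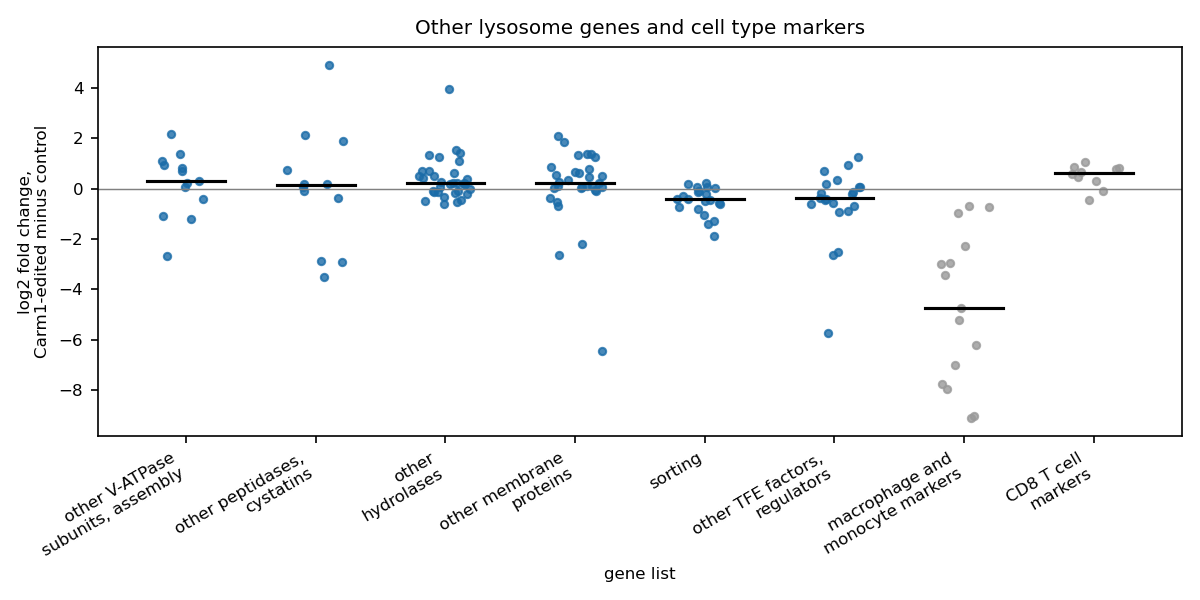
Log2 fold change of each tested gene (points) and the median (bars) in 6 lists of further lysosome genes, beside macrophage and monocyte markers and CD8 T cell markers in grey. The sorting list and the list of other TFE factors and regulators have medians below 0 (-0.41 and -0.37), the other 4 lysosome lists lie above 0 (0.13 to 0.32), and the macrophage and monocyte markers have a median of -4.76.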

How the data were processed

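Poly(A) RNA was sequenced as paired reads on an Illumina instrument with a kit that does not mark strand, per the labels' protocols. The authors deposited counts per gene as whole numbers, with RSEM and mm10 named in the submitters' processing notes; the sources used here do not give aligner, annotation release or versions. Symbols came from a GENCODE annotation of GRCm38 (49056 of 49315 gene IDs; counts without a symbol were 0.0107% to 0.0158%). Counts were tested with edgeR 4.0.16 (quasi-likelihood, robust, TMM factors, default expression filter) in R 4.3.3, with Benjamini-Hochberg adjustment, and the fit was tested on simulated data. CPM per kilobase used the gene lengths in the files. Alternatives were other scalings and filters, DESeq2 1.42.0, limma-voom 3.58.1, a test against 1.5-fold, a replicate block and leaving out each library. The 39 genes and all lists were chosen with earlier results of these data known. All 39 genes could be named, as could any gene of the lists of other V-ATPase genes and peptidases; of the other lists, up to 4 genes with the largest passing difference, a mean of at least 2 CPM and no overlap. Replicate libraries of a group differed by more than counting noise (chi-square per degree of freedom 1.45 to 13.5), so none was a copy of another.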

Additional observations from a re-analysis of the deposited data

Results flagged for a closer look

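Among the 78 groups of 4 libraries tested (39 genes in each of the 2 groups), 2 held a library far from the other 3 by Dixon's ratio, and chance gives such a gap in about 1 group in 20. Gusb was at 93.4 CPM in control replicate 4, where the other control libraries lay between 89.7 and 90.05 CPM. Glb1 was at 40.5 CPM in control replicate 2, where the others lay between 39.1 and 39.4 CPM. Both gaps are small beside the differences between the groups for these genes.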

How the results depend on the processing

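Of the 39 genes, 14 kept their direction and their side of the threshold under all 17 alternatives, 2 (Atp6v0a1 and Ctsh) under the 16 that could be run for them, since the 5 CPM filter removed them, and 23 changed under at least 1. Apart from Atp6v1e1, Atp6v0a2, Ctsc, Hexa, Lipa and Lamp1, those that changed did so only under the test against 1.5-fold, which asks for a larger difference. Against a 1.5-fold difference, 3992 of all genes passed higher and 3444 lower, with 6 and 10 of the 39 genes and 1 and 6 of the V-ATPase genes. With at least 5 CPM in 4 libraries, 1543 of all genes were at least 2-fold higher and 1270 lower. That filter changed both the genes tested and the scaling factors computed from them, and their parts were not tested. With upper-quartile scaling and with library totals alone, 5 of the 39 genes were at least 2-fold higher and 4 lower. Of the 14970 genes tested, 3735 and 3556 were at least 2-fold higher and 1751 and 1870 lower. The share of passing genes that were higher was 60.98% and 58.37% over all genes, and 48.57% and 43.59% over the 39, in these scalings. Over the 39 genes the median on the log2 scale was -0.26 with RLE factors, -0.0342 with upper quartiles, -0.0891 with library totals, -0.27 without a filter, -0.14 with the 5 CPM filter, -0.26 with DESeq2, and -0.28 to -0.24 when 1 library was left out. For the V-ATPase genes it was -0.51, -0.28, -0.33, -0.52, -0.36 and -0.51 in the same order, and -0.52 to -0.48 when 1 library was left out. Lipa turned positive with upper quartiles (0.21), library totals (0.16), the 5 CPM filter (0.0916) and without Carm1-edited replicate 1 (0.0098, against -0.0224 without control replicate 3, the 2 ends of the range when 1 library was left out). Lamp1 was -0.0037 without a filter and passed as a rise with the 5 CPM filter (0.11). Ctso, called at the edge of the threshold, was not called under most alternatives. Dpp7, a peptidase gene that did not pass, turned positive with upper quartiles (0.12) and library totals (0.0639). The core motif in place of the full one gave 11 genes with a match. The cause of the shifts between scalings was not tested.

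With the replicate number as a replicate block, 15 of the 39 genes passed higher and 22 lower, 2 and 14 of the V-ATPase genes, with a median of -0.25. Same-numbered libraries did not deviate together (correlations -0.051, -0.0512, -0.0509 and -0.0848; 0 of 4 control libraries correlated best with their own number), so the numbers were not taken as pairs. Depth limits the lowest genes, Ctsh and Atp6v0a1, and intervals between technical libraries do not cover differences between cultures or animals.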

Other observations

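Outside the lysosome lists, melanosome genes, whose products belong to a lysosome-related organelle, were measured because the series text mentions melanoma cells. Pmel, a structural protein of melanosomes, went from 3.43 ± 0.147 (control) to 12.7 ± 0.563 CPM (Carm1-edited), while Gpnmb, a lysosomal glycoprotein also made by macrophages, was at 9.70 ± 0.445 and 2.53 ± 0.483 CPM. Both passed (log2 fold changes 1.89 ± 0.068 and -1.94 ± 0.087, edgeR adjusted p = 1.8e-26 and 5.8e-22), in opposite directions.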
